A study of Xenopus tropicalis with 26 samples.

Results

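The genes described here are 10 cell cycle genes of the frog Xenopus tropicalis that act on, or close to, the anaphase-promoting complex (APC/C). They were chosen by symbol, with earlier results of these data known, and are 10 of the 28778 genes in the count table. They comprise the APC/C inhibitors fbxo43 (Emi2) and fbxo5 (Emi1), the activators cdc20 and fzr1 (Cdh1), the checkpoint genes mad2l1 and bub1b, the ubiquitin-conjugating enzyme ube2c, the Cks subunits cks1b and cks2, and cdca3 (Tome-1). All 10 passed the filter on low counts and were among 12883 tested genes.

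The APC/C is a ubiquitin ligase that ends mitosis by marking cyclins and securin for destruction. Cdc20 activates it in mitosis and Fzr1 as cells leave mitosis, while Mad2 and BubR1 hold Cdc20 back until chromosomes are attached to the spindle. Emi2 keeps the unfertilised frog egg arrested in metaphase of meiosis, and its relative Emi1 restrains the APC/C between divisions of somatic cells. Cks proteins are small partners of cyclin-dependent kinases, and Tome-1 is an APC/C substrate that, in Xenopus egg extracts, promotes mitotic entry through destruction of the kinase Wee1. Early frog embryos divide rapidly on RNA stored in the egg, and zygotic transcription starts in the blastula.

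Polyadenylated RNA of whole embryos was sequenced in 26 libraries, 2 for each of 13 groups. At stage 6 there were wildtype embryos alone, and at stages 7 and 8 each there were 6 groups. These were embryos given an antisense morpholino against e2f1 (MO) with E2f1 mRNA, with mRNA of the E2f1 mutant labelled deltaDBD, with Cdkn1a mRNA, or alone, embryos given Cdkn1a mRNA alone, and wildtype embryos with no treatment. E2f1 is a transcription factor of cell cycle genes, and Cdkn1a (p21) is an inhibitor of cyclin-dependent kinases. Because wildtype embryos were labelled as untreated, comparisons with them contain the injection itself. Both the E2f1 and the deltaDBD mRNA group received MO and an mRNA. Whether paired libraries stem from different clutches is not in the labels, so each p-value reflects only how far such library pairs spread, and that spread may be technical. In RNA of whole embryos, fewer cells with a transcript and less of it per cell cannot be told apart, and neither can less RNA and shorter poly(A) tails.

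Library totals ran from 14071614 to 19032710 counts. The level of e2f1 was 2716 to 3038 CPM (TMM-scaled counts per 1000000) in the groups given E2f1 mRNA, 2022 to 2145 CPM in those given deltaDBD mRNA, and 376 to 537 CPM in all other groups. That of cdkn1a was 236 to 303 CPM in groups given its mRNA and 1.08 to 6.09 CPM in the others, so raised e2f1 and cdkn1a RNA was found where the labels place it. Counts per gene do not tell E2f1 from deltaDBD mRNA, so a swap of these labels was not checked. A morpholino acts on translation or splicing, so the RNA level of e2f1 does not check the knockdown. The 2 stage 8 MO libraries differed from each other far more than those of any other group: a chi-square of their counts over genes, divided by its degrees of freedom, was 12.4, against 1.81 to 2.26 in the other 12 groups. Where leaving out one of them ends a call of the 10 genes, the value without it is given below. Egg-stored transcripts (11 genes) summed to 4749.7 to 4894 CPM in stage 6 wildtype embryos, and 10 first zygotic transcripts had no count there. Genes of ovarian follicle cells stayed at or under 0.339 CPM in all libraries, and of 7 markers of differentiated tissues 1 to 3 had counts in each group, with krt18.1 in every group. The summed level of these tissue markers was not low. It ran from 122 CPM in a stage 6 wildtype library to 233 CPM in a stage 8 MO library. Where 1 marker alone had counts, as in stage 6 wildtype embryos (122 to 136 CPM), the whole sum was krt18.1.

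Per kilobase of exon, the 10 genes spanned a wide range of levels in stage 6 wildtype embryos. The mean level was 881 CPM per kb for ube2c, 784 for cdc20, 421 for cks2 and 219 for fbxo43. It was lower for cdca3 with 84.1, mad2l1 with 58.5, bub1b with 46.6 and fzr1 with 38.9 CPM per kb. The lowest were cks1b with 14.4 and fbxo5 with 7.26 CPM per kb. Between close relatives, cks2 thus stood above cks1b and fbxo43 above fbxo5. Counting left out fragments that map to several places or to several genes. In the v10 build, fbxo43 lies on chromosome 6 (128118047 to 128132052, minus strand), fbxo5 on chromosome 5 (48217572 to 48222702, plus strand), cks2 on chromosome 1 (137846337 to 137849582, plus strand) and cks1b on chromosome 8 (145068841 to 145072505, minus strand). The gene cdca3 lies on chromosome 7 (9560355 to 9591902, minus strand). On plus strands, cdc20 lies on chromosome 4 (88482938 to 88491181), fzr1 on chromosome 1 (88804104 to 88923545), bub1b on chromosome 8 (114295245 to 114329695) and ube2c on chromosome 10 (19655601 to 19661790), and mad2l1 lies on the minus strand of chromosome 1 (71051959 to 71057772). For cdca3, an exon of LOC116412098 overlaps on the opposite strand, and counting was by strand. No other exon overlap was annotated for the 10 genes.

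**Figure D1:**
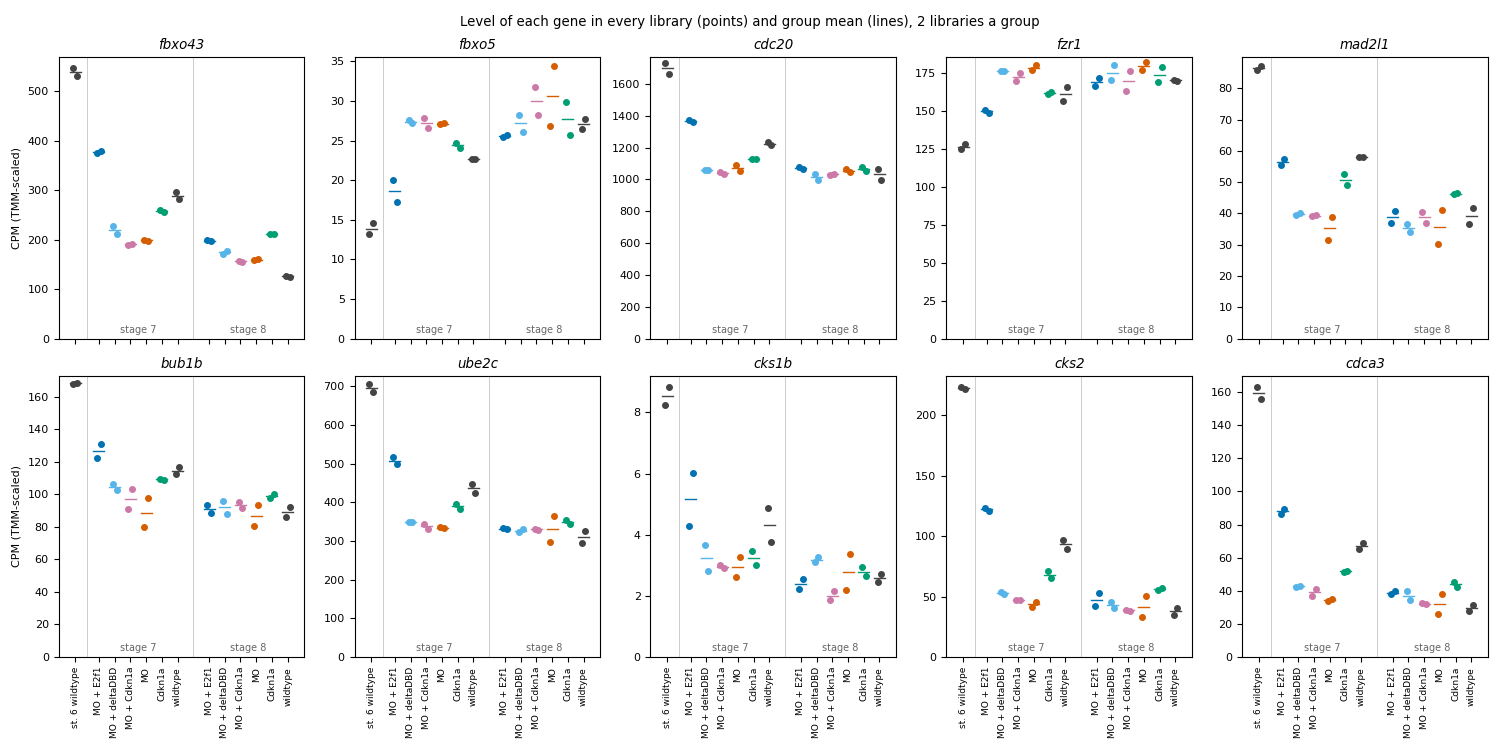
Level in CPM, after TMM scaling (trimmed means of M-values), of each gene (vertical axes start at 0) in every library (points) with the mean of each group (lines). The groups run over stages 6, 7 and 8, and MO is the e2f1 morpholino. Stage 6 wildtype embryos had the highest mean of 8 genes and the lowest of fbxo5 and fzr1.

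Wildtype embryos first gave the course of these genes through the rapid divisions. Between stages 6 and 7, 8 of the 10 genes fell and fbxo5 and fzr1 rose, and all 10 passed the test (edgeR's quasi-likelihood test, Benjamini-Hochberg adjusted p under 0.05 over all tested genes). Over all genes 56.3% were called, 28.4% higher and 27.9% lower. The median log2 fold change of the 10 genes was -0.62, against 0.01 over all tested genes. Between stages 7 and 8, 9 genes were called, 8 of them lower and fbxo5 higher, where 36.7% of all genes were called (19.1% higher and 17.6% lower). Between stages 6 and 8 all 10 were called, 8 lower, beside 69.0% of all genes (36.4% higher and 32.6% lower). Changes of this kind were thus common at these stages in the whole table. Scaling by total counts alone shifted the median of all genes by 0.17 between stages 6 and 7 and by 0.23 between stages 6 and 8 on the log2 scale, and values here are relative to TMM scaling. With total counts, 69.9% of the calls were higher, against 50.4% with TMM, between stages 6 and 7. Between stages 7 and 8, 68.5% of the calls were higher, against 52.04% with TMM, and between stages 6 and 8, 68.4% of the calls were higher, against 52.8% with TMM. The direction of each of the 10 genes was kept in the 3 wildtype comparisons.

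The inhibitor fbxo43 had 548 and 530.3 CPM in the stage 6 wildtype libraries, 296 and 283 CPM in stage 7 embryos and 127 and 125 CPM at stage 8. No library of one stage reached those of another, which was not counted over all genes. It fell by 46.3% between stages 6 and 7 (log2 fold change -0.90 ± 0.04, standard error, SE; adjusted p = 3.62e-19) and fell by 56.4% between stages 7 and 8 (-1.20 ± 0.04, adjusted p = 7.67e-22). Its relative fbxo5 had 13.2 and 14.6 CPM at stage 6, 22.6 and 22.6 CPM in stage 7 embryos and 26.4 and 27.7 CPM at stage 8. It rose between stages 6 and 7 (0.70 ± 0.11, adjusted p = 2.32e-06). Its further rise to stage 8 (0.26 ± 0.10, adjusted p = 0.0424) lost the call with DESeq2 (adjusted p = 0.0735) and without any 1 of the 4 libraries (adjusted p from 0.0775 to 0.202). The 2 inhibitors of the APC/C thus ran in opposite directions between stages 6 and 7.

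A similar split was seen in the 2 activators. The mitotic activator cdc20 had 1730.4 and 1665 CPM at stage 6, 1234 and 1215 CPM in stage 7 embryos and 1065 and 997 CPM at stage 8, and fell at both steps (-0.47 ± 0.03 and -0.25 ± 0.03). The activator of mitotic exit, fzr1, had 125 and 128 CPM at stage 6, 156 and 165 CPM in stage 7 embryos and 170.4 and 169.9 CPM at stage 8. It rose between stages 6 and 7 (0.35 ± 0.05, adjusted p = 6.54e-08), and its stage 8 over stage 7 value of 0.08 (95% interval -0.01 to 0.17) was not called with TMM scaling, while total counts gave a call (0.14, adjusted p = 0.0111).

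Within a library, ratios of genes do not depend on the scaling between libraries. Per kilobase, fbxo43 over fbxo5 was 32.3 and 28.2 in stage 6 wildtype libraries, 10.1 and 9.69 at stage 7 and 3.73 and 3.50 at stage 8. The ratio of cdc20 over fzr1 was 20.9 and 19.5 at stage 6, 11.9 and 11.03 at stage 7 and 9.38 and 8.81 at stage 8. Both ratios were lower at each later stage, with no overlap between the stages. At stage 7 the fbxo43 over fbxo5 ratio was 14.6 and 17.1 in MO + E2f1 libraries, 6.39 and 6.07 in MO + deltaDBD libraries, 5.26 and 5.59 in MO + Cdkn1a libraries, 5.75 and 5.64 in MO libraries and 8.15 and 8.23 in Cdkn1a libraries. The cdc20 over fzr1 ratio at stage 7 was 13.7 and 13.7 with E2f1 mRNA, 9.05 and 9.02 with deltaDBD mRNA, 9.22 and 8.91 in MO + Cdkn1a libraries, 9.28 and 8.76 in MO libraries and 10.5 and 10.5 in Cdkn1a libraries. MO + E2f1 libraries were above the wildtype libraries of stage 7 in both ratios, and all other injected libraries were below them. At stage 8 fbxo43 over fbxo5 was 6.07 and 5.93 in MO + E2f1 libraries, 4.68 and 5.30 in MO + deltaDBD libraries, 3.82 and 4.29 in MO + Cdkn1a libraries, 4.58 and 3.61 in MO libraries and 5.51 and 6.41 in Cdkn1a libraries, against 3.73 and 3.50 in wildtype libraries. In this ratio the MO + E2f1 and Cdkn1a libraries were above all other libraries of that stage. The cdc20 over fzr1 ratio at stage 8 was 9.72 and 9.28 in MO + E2f1 libraries and 9.56 and 8.84 in Cdkn1a libraries, and these overlapped the 9.38 and 8.81 of wildtype libraries. The ratios were not tested and are a description.

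**Figure D2:**
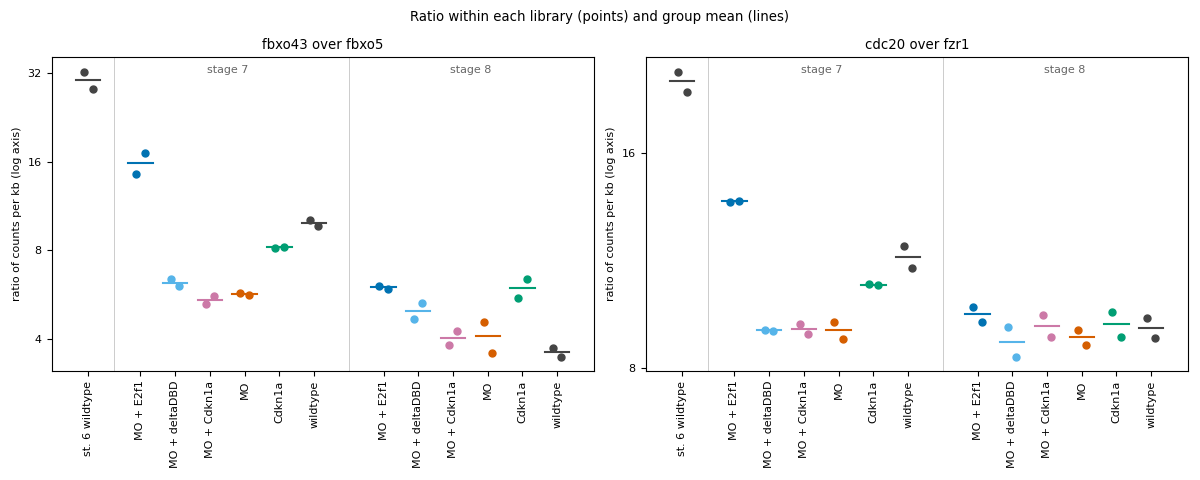
Ratio of counts per kb of fbxo43 over fbxo5 (left) and of cdc20 over fzr1 (right) within each library (points), with group means (lines), on logarithmic vertical axes. Groups run over stages 6, 7 and 8; MO is the e2f1 morpholino. Both ratios are highest at stage 6, and at stage 7 they are highest with E2f1 mRNA.

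Of the 10 genes, the Cks subunit cks2 and the mitotic entry gene cdca3 had the largest fitted falls between stages 6 and 8 (-2.56 and -2.43 on the log2 scale). For cks2 the wildtype libraries had 223 and 222 CPM at stage 6, 97.2 and 89.8 CPM in stage 7 embryos and 35.01 and 40.4 CPM at stage 8. It fell by 57.99% at the first step and fell by 59.7% at the next (log2 fold changes -1.25 ± 0.12 and -1.31 ± 0.13). For cdca3 the levels were 163 and 156 CPM at stage 6, 65.02 and 69.1 CPM in stage 7 embryos and 27.8 and 31.5 CPM at stage 8, and it fell by 57.9% and then fell by 55.8% (-1.25 ± 0.09 and -1.18 ± 0.10). The stages did not overlap for either gene, which was not counted over all genes. Far lower in level, cks1b had 8.25 and 8.85 CPM at stage 6, 4.87 and 3.76 CPM in stage 7 embryos and 2.44 and 2.71 CPM at stage 8. Its lowest count in a library was 27, and its call between stages 7 and 8 (-0.75 ± 0.23) was lost without stage 7 wildtype replicate 1 (adjusted p = 0.166) or stage 8 wildtype replicate 1 (adjusted p = 0.0693). Per kilobase, cks2 over cks1b was 30.3 and 28.1 in the stage 6 wildtype libraries, 22.4 and 26.7 at stage 7 and 16.1 and 16.7 at stage 8.

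The fitted falls of the checkpoint genes and ube2c were smaller. The checkpoint gene mad2l1 had 85.9 and 87.1 CPM at stage 6, 58.2 and 58.1 CPM in stage 7 embryos and 36.5 and 41.7 CPM at stage 8. Its partner bub1b had 168 and 168 CPM, 112 and 117 CPM and 85.95 and 92.5 CPM at these stages. The APC/C's conjugating enzyme ube2c had 706 and 686 CPM at stage 6, 446 and 425 CPM in stage 7 embryos and 295 and 325 CPM at stage 8. All 3 fell at both steps, by 0.57 and 0.57, 0.55 and 0.36, and 0.68 and 0.49 on the log2 scale. Egg-stored transcripts moved alongside, with summed levels of 4749.7 to 4894 CPM at stage 6, 3582 to 3659.5 CPM in stage 7 embryos and 3086 to 3113 CPM at stage 8. First zygotic transcripts summed to 0 CPM, 11.96 to 13.6 CPM and 102 to 109 CPM at these stages. The part of these shifts in the members' changes was not tested.

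Other genes of the same machinery were read from 8 lists. Between stages 6 and 7 in wildtype embryos, 13 of 21 APC/C substrates fell and 5 rose, with a median log2 fold change of -0.37. Over all genes 27.9% fell and 28.4% rose. Among them, cyclin B1 (ccnb1) fell by 0.51, the mitotic kinase gene plk1 by 0.63 and the replication licensing gene cdc6 by 0.47 on the log2 scale. Of the spindle checkpoint and kinetochore genes 10 of 16 fell and 3 rose. Here knl1, a scaffold of the kinetochore, changed by -0.77 ± 0.05, and aurkb and incenp, of the chromosomal passenger complex, by -0.87 ± 0.06 and -0.44 ± 0.03. The APC/C core subunits were mixed, 6 of 13 lower and 4 higher, with anapc10 at -0.52 ± 0.05, cdc27 at -0.41 ± 0.05 and anapc5 at 0.49 ± 0.07. Among partners of Cks and of the SCF ligase, 8 of 15 fell and 3 rose. The maternal Wee1-type kinase wee2 fell (-0.55 ± 0.03), as did the phosphatase cdc25a (-0.44 ± 0.04), and the Cdk-inhibiting kinase pkmyt1 rose (0.92 ± 0.07).

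The remaining lists were counted in the same comparison. Of 13 tested genes of the Emi2 and cytostatic arrest pathway, 6 fell and 4 rose, including rps6ka1, a p90Rsk kinase gene (1.53 ± 0.10). Among ubiquitin E2 enzymes and deubiquitylases, 5 of 10 fell, including ube2s, which extends the chains that Ube2c starts (-0.40 ± 0.04), and 4 rose. For the mitotic phosphatase genes the counts were 8 lower and 3 higher of 12, and for separase and cohesin 9 lower and 1 higher of 14. The list medians ran from -0.37 for the substrates to -0.04 for the E2 enzymes, against 0.01 over all genes. Some genes stand in several lists: wee2 is also among the egg-stored transcripts, and plk1 is in 2 lists.

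Comparing MO with wildtype embryos asks how the levels of these genes stand when E2f1 is targeted. At stage 7, 8 of the 10 genes were called in MO over wildtype embryos, 7 lower and fzr1 higher. Over all genes 25.2% were called, 12.7% higher and 12.5% lower, and with total counts 66.02% of the calls were higher, against 50.5% with TMM. The median log2 fold change of the 10 genes was -0.46, against 0.01 over all genes. Of the called genes, cks2, cdca3, mad2l1 and fbxo43 had the largest falls.

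For cks2, MO libraries of stage 7 had 41.3 and 45.9 CPM, against 97.2 and 89.8 CPM in wildtype libraries, a fall of 53.4% (log2 -1.10 ± 0.13, adjusted p = 1.54e-05). For cdca3, MO libraries had 33.7 and 35.3 CPM and wildtype libraries 65.02 and 69.1 CPM, a fall of 48.6% (-0.96 ± 0.10, adjusted p = 1.38e-07). In both genes no stage 7 MO library reached a wildtype library of that stage. All stage 7 MO libraries were above the wildtype libraries of stage 8. For fbxo43 the MO libraries had 200.3 and 198 CPM and the wildtype libraries 296 and 283 CPM (-0.54 ± 0.04, adjusted p = 8.84e-13), and the MO libraries were again above the stage 8 wildtype libraries. Checkpoint gene mad2l1 had 31.6 and 38.8 CPM in MO libraries, against 58.2 and 58.1 CPM in wildtype (-0.73 ± 0.10), and bub1b had 79.8 and 97.8 CPM, against 112 and 117 CPM (-0.37 ± 0.08). For none of these 5 genes did MO and wildtype libraries overlap, which was not counted over all genes and adds no test to the calls.

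The enzyme gene ube2c and the activator gene cdc20 were called lower as well. For ube2c the MO libraries had 335 and 333 CPM and the wildtype libraries 446 and 425 CPM (-0.38 ± 0.06, adjusted p = 2.95e-05). For cdc20 the MO libraries had 1093 and 1051 CPM and the wildtype libraries 1234 and 1215 CPM (-0.19 ± 0.03, adjusted p = 2.24e-05). The activator fzr1 had 177 and 180.1 CPM in MO and 156 and 165 CPM in wildtype libraries. It rose by 0.15 on the log2 scale (adjusted p = 0.0115), a call lost without stage 7 MO replicate 2 (adjusted p = 0.0902) or stage 7 wildtype replicate 1 (adjusted p = 0.183). The genes fbxo5 and cks1b were not called. In the case of fbxo5 there were 27.04 and 27.2 CPM in MO and 22.6 and 22.6 CPM in wildtype libraries (0.26, 95% interval 0.06 to 0.47, adjusted p = 0.0548), and in that of cks1b 2.62 and 3.26 CPM in MO and 4.87 and 3.76 CPM in wildtype libraries (-0.56, -1.02 to -0.11, adjusted p = 0.0603). With both stage 8 MO libraries left out of the model, these 2 genes were called too (adjusted p = 0.0176 and 0.0437), and fbxo5 also with total counts (adjusted p = 0.0337). First zygotic transcripts summed to 58.6 to 65.7 CPM in MO and 11.96 to 13.6 CPM in wildtype embryos of stage 7, and egg-stored ones to 2954 to 2966 CPM in MO and 3582 to 3659.5 CPM in wildtype embryos. Their part in these results was not tested.

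The mutant deltaDBD mRNA was set against MO alone, and E2f1 mRNA against the mutant. In MO + deltaDBD over MO embryos at stage 7, none of the 10 genes was called by edgeR, 3 had an unadjusted p under 0.05, and DESeq2 called 0. Over all genes 0.0310% were called. The 10 values ran from -0.02 for fzr1 to 0.31 for cdca3 (95% interval 0.09 to 0.53), and cks2 had 0.29 (-0.01 to 0.58). The 3 genes under that unadjusted p were cdca3, bub1b (0.24, 0.08 to 0.40) and fbxo43 (0.14, 0.06 to 0.22). In a model of these groups alone, cks2 and cdca3 were called (adjusted p = 0.0196 and 0.0305), and cdca3 was also called with both stage 8 MO libraries left out (adjusted p = 0.0365).

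All 10 genes were called with E2f1 over deltaDBD mRNA, both with MO, at stage 7. Of these 8 rose and fbxo5 and fzr1 fell, where 46.6% of all genes were called (22.6% higher and 23.9% lower, and with total counts 31.2% of the calls were higher, against 48.6% with TMM). The median of the 10 genes was 0.52, against -0.02 over all genes. Total counts shifted the median of all genes by -0.10. The deltaDBD and E2f1 groups share no library with the MO and wildtype groups, and all 10 genes had opposite signs in the 2 comparisons. That was so for 9942 of 12883 tested genes (77.2%), and 2798 of the 2819 genes called in both comparisons (99.3%) had opposite signs, so the members' 8 of 8 was like the rest.

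In MO + E2f1 libraries cks2 had 124 and 121 CPM, against 53.9 and 52.4 CPM in MO + deltaDBD libraries (log2 1.201 ± 0.13, adjusted p = 1.23e-06). For cdca3 the values were 86.6 and 89.2 CPM with E2f1 and 42.2 and 43.1 CPM with deltaDBD (1.04 ± 0.10, adjusted p = 6.69e-09). For fbxo43 they were 376 and 379.7 CPM with E2f1 and 227 and 212 CPM with deltaDBD (0.78 ± 0.04, adjusted p = 5.21e-17). These 3 genes thus rose by 130.0%, 106% and 71.8%. The genes ube2c (517 and 499 CPM with E2f1, 349 and 350.0 CPM with deltaDBD, 0.54 ± 0.06), mad2l1 (0.50 ± 0.10) and cdc20 (0.37 ± 0.03) rose as well. Both bub1b (0.28 ± 0.08) and cks1b (0.67 ± 0.22) lost their calls without MO + E2f1 replicate 2 (adjusted p = 0.0621 and 0.247), cks1b also without MO + deltaDBD replicate 2 (adjusted p = 0.151) and bub1b with total counts (adjusted p = 0.0884). The falling genes were fbxo5, with 20.005 and 17.2 CPM with E2f1 and 27.6 and 27.2 CPM with deltaDBD (-0.56 ± 0.11, adjusted p = 5.06e-05), and fzr1, with 151 and 149 CPM with E2f1 and 176 and 176 CPM with deltaDBD (-0.23 ± 0.05, adjusted p = 6.68e-05).

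The e2f1 RNA of the E2f1 mRNA groups was far above the wildtype level, so MO + E2f1 embryos carried more of it than wildtype embryos. At stage 7, in MO + E2f1 over wildtype embryos fbxo43 (0.38 ± 0.04), cdca3 (0.39 ± 0.09), cks2 (0.39 ± 0.12), ube2c (0.22 ± 0.06) and cdc20 (0.16 ± 0.03) were called higher and none lower, 5 of the 10 genes. Over all genes 13% were called, 6.82% higher and 6.20% lower, and with total counts 17.3% of the calls were higher, against 52.4% with TMM. The stage 7 wildtype libraries are also those of the MO comparison. The call of cks2 was lost without any 1 of the 4 libraries (adjusted p from 0.112 to 0.258). That of cdca3 was lost without MO + E2f1 replicate 2 or wildtype replicate 1 (0.0788 and 0.0864), and that of ube2c without MO + E2f1 replicate 1 or 2 or wildtype replicate 2 (adjusted p from 0.0627 to 0.164). With total counts cks2 and ube2c lost their calls (adjusted p = 0.1157 and 0.1498), and fbxo5 (-0.34) and fzr1 (-0.16) were called lower. With both stage 8 MO libraries left out, fbxo5 was also called lower (-0.28, adjusted p = 0.0247). Of the genes not called, mad2l1 had -0.04 (95% interval -0.23 to 0.15), with 55.4 and 57.6 CPM in MO + E2f1 and 58.2 and 58.1 CPM in wildtype libraries.

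**Figure D3:**
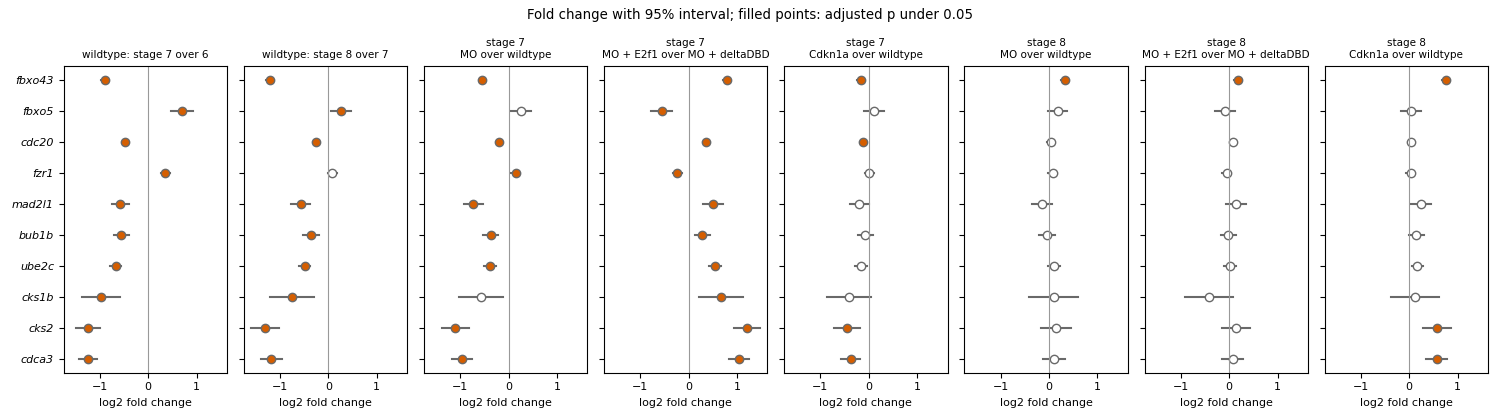
Log2 fold change of each gene (points) with its 95% interval (lines) in 8 comparisons, the group named first over the group named last, with filled points where the adjusted p was under 0.05. In stage 7 MO over wildtype embryos cks2 sits at -1.10, and with E2f1 over deltaDBD mRNA at 1.201, while at stage 8 fbxo43 alone is filled in both comparisons.

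Among the pathway lists, most of the called substrates fell in MO embryos at stage 7. In MO over wildtype embryos 13 of 21 APC/C substrates fell and 4 rose (median -0.13), including plk1 (-0.37 ± 0.04), cyclin A1 (ccna1, -0.26 ± 0.03) and cyclin B2 (ccnb2, -0.32 ± 0.04). Of the checkpoint and kinetochore genes 7 of 16 fell and 2 rose, among them aurkb (-0.45 ± 0.06), knl1 (-0.34 ± 0.05) and ndc80 (-0.30 ± 0.05), a microtubule-binding subunit of the kinetochore. The APC/C core had 3 lower and 2 higher of 13, the Cks and SCF partners 5 and 2 of 15, the Emi2 pathway 5 and 2 of 13, and the E2 enzymes 4 and 3 of 10. The phosphatase list had 6 lower and 2 higher of 12, and separase and cohesin 3 and 1 of 14. With E2f1 over deltaDBD mRNA, 13 of 21 substrates rose and 6 fell, with ccna1 at 0.39 ± 0.03, ccnb1 at 0.38 ± 0.03 and the spindle gene tpx2 at 0.40 ± 0.03. Of the checkpoint genes 8 rose and 3 fell of 16, and of the APC/C core 5 rose and 3 fell of 13. Over all genes the shares were 12.5% lower and 12.7% higher in MO over wildtype embryos, and 22.6% higher and 23.9% lower with E2f1 over deltaDBD mRNA. Nothing is read from lists with counts near these shares, such as separase and cohesin in MO embryos.

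Cdkn1a mRNA alone was set against wildtype embryos in the same way, and fewer of the 10 genes were called at stage 7. Of the 10 genes fbxo43, cdc20, cks2 and cdca3 fell and none rose, where 4.75% of all genes were called (1.93% higher and 2.82% lower, and with total counts 71.6% of the calls were higher, against 40.7% with TMM). The Cdkn1a libraries had 70.9 and 65.1 CPM of cks2, against 97.2 and 89.8 CPM in wildtype libraries (-0.46 ± 0.12, adjusted p = 0.0492). For cdca3 they had 51.2 and 52.1 CPM, against 65.02 and 69.1 CPM in wildtype (-0.38 ± 0.10, adjusted p = 0.0265), and for fbxo43 259.6 and 256 CPM, against 296 and 283 CPM (-0.17 ± 0.04, adjusted p = 0.0118). No Cdkn1a library reached the wildtype libraries in these genes, which was not counted over all genes. The calls of cdc20 (-0.12 ± 0.03), cks2 and cdca3 were lost without any 1 of the 4 libraries (adjusted p from 0.0949 to 0.302), and that of fbxo43 without wildtype replicate 1 or either Cdkn1a library (adjusted p from 0.109 to 0.226). With total counts fbxo43 alone was called. With both stage 8 MO libraries left out of the model, mad2l1 (adjusted p = 0.0424) and ube2c (adjusted p = 9.30e-05) were called lower too.

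In embryos that also carried the MO, Cdkn1a mRNA moved none of the 10 genes past the test at either stage. At stage 7 edgeR called 0 with 0 under an unadjusted p of 0.05 (1.40% of all genes called), and at stage 8 the counts were again 0 and 0 (1.82% of all genes called). DESeq2 called 0 at both stages. The stage 7 values ran from -0.07 for fbxo43 to 0.18 for cdca3 (95% interval -0.04 to 0.40). The stage 7 difference of the Cdkn1a effect between MO and untreated embryos was called for 0 of the 10 genes by edgeR, with 4 under an unadjusted p of 0.05 and 1.05% of all genes called (with total counts, 48.95% of the calls were higher, against 64.4% with TMM). DESeq2 called 1, cdca3 (0.54, adjusted p = 0.0255), where edgeR gave 0.55 (adjusted p = 0.0600). With both stage 8 MO libraries left out, cks2 (0.58), cdca3 (0.55), mad2l1 (0.36) and ube2c (0.17) were called. At stage 8 without MO replicate 1, MO + Cdkn1a was called lower than MO for cks2 (-0.39), cdca3 (-0.25) and ube2c (-0.15), while without MO replicate 2 it was called higher for mad2l1 (0.35) and ube2c (0.14).

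At stage 8 the level of fbxo43 was 199 and 196 CPM in MO + E2f1 libraries, 170.5 and 178 CPM in MO + deltaDBD, 157 and 156 CPM in MO + Cdkn1a, 158 and 160.2 CPM in MO and 212 and 212 CPM in Cdkn1a libraries, against 127 and 125 CPM in wildtype libraries. All 10 injected libraries of stage 8 were above both wildtype libraries. The same wildtype libraries serve every group here, and such separation was not counted over all genes. In MO over wildtype embryos fbxo43 alone of the 10 genes was called, and it rose (0.34 ± 0.04, adjusted p = 5.59e-07), beside 4.32% of all genes. In a model of these 4 libraries alone it was not called (0.34, adjusted p = 0.206). The remaining 9 values ran from -0.14 for mad2l1 to 0.18 for fbxo5 (95% interval -0.02 to 0.38). They rest on MO libraries that disagree: cks2 had 33.3 and 50.2 CPM in MO libraries, against 35.01 and 40.4 CPM in wildtype. Without MO replicate 1, cks2 (0.42), cdca3 (0.37), fbxo5 (0.36) and ube2c (0.24) were called higher in MO embryos, and without MO replicate 2, mad2l1 was called lower (-0.37).

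Of the mRNAs given with MO, deltaDBD over MO at stage 8 gave no call among the 10 genes by edgeR or DESeq2, 1 unadjusted p under 0.05, and 1.03% of all genes called (with total counts, 39.7% of the calls were higher, against 51.9% with TMM). Without MO replicate 1, fbxo5 (-0.35) and ube2c (-0.17) were called, and without MO replicate 2, cdca3 (0.50) and cks2 (0.37). With E2f1 over deltaDBD mRNA fbxo43 alone rose (0.18 ± 0.04, adjusted p = 0.00711; 1.60% of all genes called). That call was lost without MO + deltaDBD replicate 1 or either MO + E2f1 library (adjusted p from 0.0630 to 0.272), and with both MO libraries left out cdc20 was called too (0.08, adjusted p = 0.0440). In MO + E2f1 over wildtype embryos fbxo43 (0.65 ± 0.04) and cdca3 (0.39 ± 0.11, adjusted p = 0.0274) rose, beside 5.75% of all genes. The call of cdca3 was lost without either MO + E2f1 library or wildtype replicate 1 (adjusted p from 0.115 to 0.266), and with total counts (adjusted p = 0.0697). With both MO libraries left out, cks2 (0.34) and ube2c (0.10) were called as well.

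In Cdkn1a over wildtype embryos of stage 8, 3 of the 10 genes rose and none fell, where 6.22% of all genes were called (2.81% higher and 3.41% lower). For fbxo43 the Cdkn1a libraries had 212 and 212 CPM, against 127 and 125 CPM in wildtype libraries, a rise of 68.1% (0.75 ± 0.04, adjusted p = 4.53e-16). For cdca3 they had 45.4 and 42.5 CPM, against 27.8 and 31.5 CPM (0.57 ± 0.11, adjusted p = 8.26e-04), and for cks2 55.3 and 57.2 CPM, against 35.01 and 40.4 CPM (0.58 ± 0.14, adjusted p = 0.0188). The groups did not overlap in any of these 3 genes, which was likewise not counted over all genes. The call of cks2 was lost without wildtype replicate 1 or either Cdkn1a library (adjusted p from 0.0977 to 0.199), and with both MO libraries left out of the model mad2l1 (0.24) and ube2c (0.17) were called higher too. First zygotic transcripts summed to 22.8 to 24.4 CPM in Cdkn1a and 102 to 109 CPM in wildtype embryos, and egg-stored ones to 3169 to 3202 CPM in Cdkn1a and 3086 to 3113 CPM in wildtype embryos. Their part was not tested. Of the APC/C substrates 4 of 21 rose and 0 fell, including ccna1 (0.17 ± 0.03) and aurka (0.33 ± 0.08), and of the checkpoint genes 4 of 16 rose and 0 fell, including knl1 (0.21 ± 0.05). In Cdkn1a over wildtype embryos of stage 7, 9 of 21 substrates were lower and 1 higher, where 2.82% of all genes were called lower and 1.93% higher. Both sets of counts are relative to wildtype embryos of the same stage. From stage 7 to stage 8 within Cdkn1a embryos, 0 of 21 substrates were called higher and 1 lower.

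The difference of the Cdkn1a effect between MO and untreated embryos at stage 8 was called for fbxo43 (-0.78 ± 0.06, adjusted p = 7.70e-12) and cdca3 (-0.56 ± 0.15, adjusted p = 0.0289), both lower, beside 6.33% of all genes. In MO embryos, fbxo43 had 157 and 156 CPM with Cdkn1a mRNA and 158 and 160.2 CPM without it, while in untreated embryos it had 212 and 212 CPM with and 127 and 125 CPM without. Without MO replicate 1, cks2 (-0.96), mad2l1 (-0.33) and ube2c (-0.32) were also called, and DESeq2 called cks2 with all libraries (-0.69, adjusted p = 0.0189). The call of cdca3 was lost without MO replicate 2 (-0.26, adjusted p = 0.196), without either MO + Cdkn1a or Cdkn1a library or wildtype replicate 1 (adjusted p from 0.0502 to 0.131), and in a model of these groups alone (adjusted p = 0.263).

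The step from stage 7 to stage 8 was compared within conditions. In MO + E2f1 embryos all 10 genes were called, 8 lower and fbxo5 and fzr1 higher, beside 44.6% of all genes (22.6% higher and 22% lower, and with total counts 68.4% of the calls were higher, against 50.8% with TMM). The steps were -1.36 ± 0.13 for cks2, -1.17 ± 0.10 for cdca3, -0.93 ± 0.04 for fbxo43 and 0.46 ± 0.11 for fbxo5. In MO embryos fbxo43 alone was called (-0.32 ± 0.04, adjusted p = 3.29e-06), beside 3.69% of all genes (with total counts, 60.4% of the calls were higher, against 39.1% with TMM), and in a model of those 4 libraries alone no gene was (fbxo43 adjusted p = 0.343). The MO step of cks2 was -0.06 (95% interval -0.37 to 0.24). Without stage 8 MO replicate 1, fbxo5 (0.35) and ube2c (0.13) were called, and without replicate 2, cks2 (-0.39), cdca3 (-0.40) and ube2c (-0.16). In Cdkn1a embryos fbxo43 alone was called (-0.28 ± 0.04, adjusted p = 2.26e-05), beside 2.41% of all genes (with total counts, 79.3% of the calls were higher, against 68.4% with TMM). With both stage 8 MO libraries left out cdc20 (-0.08), cks2 (-0.28), cdca3 (-0.23) and ube2c (-0.16) were called lower as well.

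**Figure D4:**
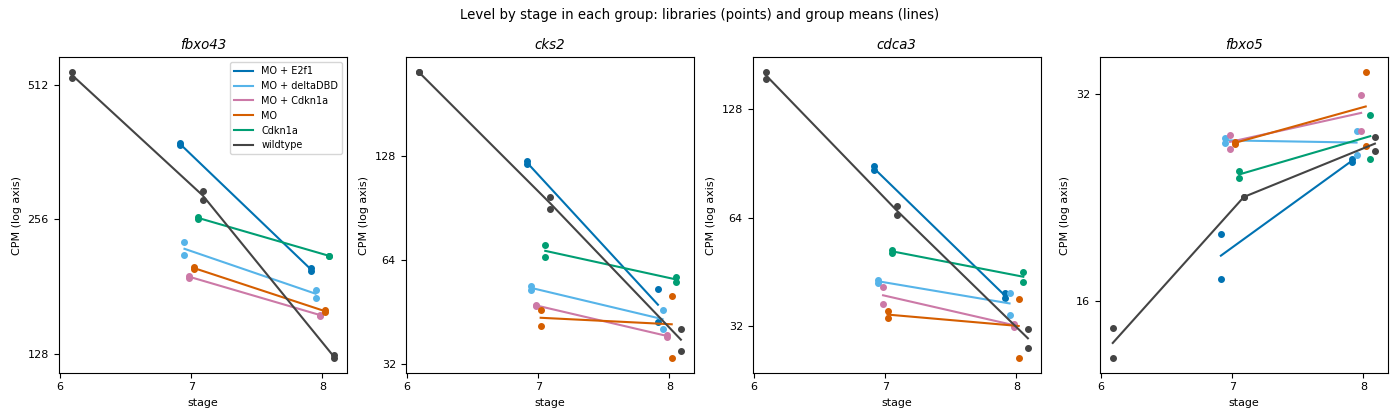
Level (CPM, logarithmic vertical axes) of fbxo43, cks2, cdca3 and fbxo5 at stages 6 to 8 in each group, with libraries as points and group means joined by lines; MO is the e2f1 morpholino. The MO + E2f1 and wildtype lines fall steeply from stage 7 to stage 8 for the first 3 genes, the MO and Cdkn1a lines less, and the stage 8 MO libraries of cks2 lie apart at 33.3 and 50.2 CPM.

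Whether an effect differed between the stages was tested as a difference of differences, which shares its libraries with the comparisons above. On the signed log2 scale, the MO effect was higher at stage 8 than at stage 7 for 7 of the 10 genes. It was called lower for none, where 16.1% of all genes were called (7.40% higher and 8.75% lower). All 7 genes were called lower in MO embryos at stage 7, and of them fbxo43 alone was called at stage 8, higher. For cks2 the MO effect was -1.10 at stage 7 and 0.14 at stage 8, and for cdca3 -0.96 and 0.11. The differences were 1.25 ± 0.19 for cks2, 1.07 ± 0.15 for cdca3, 0.88 ± 0.06 for fbxo43, 0.59 ± 0.14 for mad2l1, 0.48 ± 0.08 for ube2c, 0.33 ± 0.11 for bub1b and 0.23 ± 0.04 for cdc20. Without stage 8 MO replicate 1 they were 1.52 for cks2, 1.33 for cdca3, 0.89 for fbxo43, 0.80 for mad2l1 and 0.63 for ube2c, and cks1b was called too (0.96, adjusted p = 0.0493). Without stage 8 MO replicate 2 they were 0.92 for cks2, 0.77 for cdca3, 0.87 for fbxo43, 0.35 for mad2l1 and 0.33 for ube2c. In a model of those 4 groups alone fbxo43, cks2 and cdca3 remained called. The call of bub1b was lost with total counts (adjusted p = 0.0912). It was also lost without stage 7 MO replicate 1 or either stage 7 wildtype library (values from 0.19 to 0.36). The same held without stage 8 MO replicate 2 (0.22) or stage 8 wildtype replicate 1 (0.28). The effect of E2f1 over deltaDBD mRNA differed for 9 genes, 7 lower and fbxo5 and fzr1 higher at stage 8, beside 25.8% of all genes (12.8% higher and 13% lower, and with total counts 71.7% of the calls were higher, against 49.7% with TMM). Here cks2 had -1.06 ± 0.19, cdca3 -0.97 ± 0.14, fbxo43 -0.60 ± 0.06 and fbxo5 0.47 ± 0.14. Leaving out a single library ended the call of fbxo5 in 2 cases, of cks1b in 3, of bub1b in 6 and of fzr1 in 6, and mad2l1 (-0.36, adjusted p = 0.0543) was called with both stage 8 MO libraries left out (adjusted p = 0.00328), and also with DESeq2 (adjusted p = 0.0482), median-of-ratios scaling (adjusted p = 0.0481) or no count filter. The call of fzr1 was lost with DESeq2 (adjusted p = 0.0585) and without a count filter (adjusted p = 0.0668), and that of bub1b with total counts (adjusted p = 0.215). For the Cdkn1a effect 5 genes were called, all higher at stage 8, beside 6.09% of all genes (3.66% higher and 2.44% lower, and with total counts 34.3% of the calls were higher, against 60.00% with TMM). They were cks2 (1.03 ± 0.19), cdca3 (0.94 ± 0.14), fbxo43 (0.92 ± 0.06), ube2c (0.33 ± 0.08) and cdc20 (0.16 ± 0.04). A single library left out ended the call of ube2c in 5 cases (values from 0.25 to 0.35) and of cdc20 in 6 (0.11 to 0.17). Total counts ended the calls of ube2c (adjusted p = 0.119) and cdc20 (adjusted p = 0.0861), and DESeq2 that of cdc20 (adjusted p = 0.0547). Without the stage 8 MO libraries mad2l1 was called too (0.44, adjusted p = 7.68e-04). In these stage comparisons 12 and 11 of 21 APC/C substrates were called higher for MO and for Cdkn1a, and 1 and 0 lower. Both use the same wildtype libraries, so the 2 counts are not separate results. In the wildtype step from stage 7 to stage 8, 12 of the 21 substrates fell and 4 rose, where 17.6% of all genes fell and 19.1% rose. In the MO step 0 were called, and in the Cdkn1a step 1 fell (3.69% and 2.41% of all genes called).

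Set against the wildtype course, the 6 genes that changed by over 1 log2 unit between stages 6 and 8 (fbxo43, mad2l1, cks1b, cks2, cdca3 and ube2c) can be placed along it as a share of that change. At stage 7 the median share was 37.2% in MO + E2f1 embryos (24.5% to 53.7%), 80.8% in MO + deltaDBD (61.7% to 97.3%), 87.9% in MO + Cdkn1a (71.6% to 99.3%), 90.8% in MO (68.5% to 113%) and 67.02% in Cdkn1a embryos (50.8% to 80.8%), against 50.8% in wildtype embryos (42.8% to 57.9%). At stage 8 it was 78.2% in Cdkn1a embryos (64.3% to 93.4%) and 89.2% in MO + E2f1 embryos (69.1% to 106%). It was 89.5% in MO + deltaDBD (77.7% to 112%), 94.0% in MO (83.8% to 112%) and 96.8% in MO + Cdkn1a embryos (85.3% to 121%). In each of these injected groups of stage 8 the lowest share was that of fbxo43. The highest shares of MO + E2f1 (106%) and MO + Cdkn1a embryos (121%) were those of cks1b, which had down to 27 counts. That of MO embryos (112%) was of mad2l1, with 30.2 and 41.0 CPM in the 2 discordant stage 8 MO libraries. These shares describe levels, use wildtype values that all of them share, and were not tested.

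Over the 13 group means the spread between the highest and lowest group was 5.90 times for cks2, 5.38 for cdca3, 4.28 for fbxo43 and 4.26 for cks1b. It was 2.46 times for mad2l1, 2.25 for ube2c, 2.21 for fbxo5, 1.94 for bub1b, 1.67 for cdc20 and 1.42 for fzr1. In the order of the 13 groups, 11 of 12 neighbouring pairs had libraries that did not overlap for fbxo43, and 4 to 6 of 12 for the other genes. Groups were ordered by each gene's own means, and such pairs were not counted over all genes. Among the 10 genes, libraries of a group also lay closest for fbxo43 (median coefficient of variation 0.894%, against 9.62% for cks1b). The one overlapping pair of fbxo43 was stage 7 MO (200.3 and 198 CPM) and stage 8 MO + E2f1 (199 and 196 CPM). Across the 13 group means of log2 CPM, fbxo5 and fzr1 correlated with each other (r = 0.97) and negatively with the other 8 genes (r from -0.98 to -0.87). Among 9859 candidate genes, the closest in pattern to cks2 were cdca3 (r = 0.997), fibp (0.996) and vrk1 (0.995). For cdca3 they were cks2, bambi (0.993) and zfp36l2.2 (0.993), and for fbxo43 c1orf112 (0.992), lrr1 (0.991) and sod1 (0.991). Such values share the stage course of the whole table and are descriptions.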

How the data were processed

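RNA of Xenopus tropicalis embryos was measured in 26 polyA-selected, stranded libraries, grouped by the labels. Per the submitters' processing notes, the authors used fastp, STAR 2.7.0e, featureCounts 2.0.1 and deepTools. Per the file headers, the deposited counts are fragments per gene of the v10 annotation, reverse-stranded, with both mates mapped and no chimeric pairs. The recorded command did not ask for fragments that map to several places or genes, which the program leaves out by default. The deposited counts were used unchanged, and the deposited exon length gave levels per kb. Trimming settings were not stated there.

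The filterByExpr function of edgeR 4.0.16 (R 4.3.3, minimum count 10, minimum total 15) kept 12883 of 28778 genes. A quasi-likelihood model with 13 group means was fitted to TMM-scaled counts (13 residual degrees of freedom, biological coefficient of variation 3.93%), and 23 comparisons were tested, with Benjamini-Hochberg adjustment over all tested genes and calls under 0.05. Levels are CPM on TMM-scaled library sizes (TMM factors 0.872 to 1.06). Self-tests on simulated data were run. Alternatives were DESeq2 1.42.0, other scalings, no filter, a replicate block, models of the compared groups alone, and each library left out. After the data were seen, leaving out both stage 8 MO libraries was added. Members and gene lists were chosen with earlier results of these data known. All 10 members are described. From each list, up to 3 called genes of smallest p were named per comparison, and the 3 genes of closest pattern for the 3 members of widest range. Same-numbered replicates did not deviate together (correlations from -0.07 to 0.06 over 78 group pairs), so numbers were not taken as pairs.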

Additional observations from a re-analysis of the deposited data

Results flagged for a closer look

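Each of these results is the test of a difference between effects, called by edgeR at an adjusted p under 0.05 over all tested genes. The Cdkn1a effect at stage 8 was lower in MO than in untreated embryos for fbxo43 by a log2 difference of -0.78 and for cdca3 of -0.56. The wildtype arm alone of this test sets injected against untreated embryos, so the injection itself cannot be told apart from it. On the signed log2 scale, the MO effect against wildtype was higher at stage 8 than at stage 7 for cks2 (1.25), cdca3 (1.07), fbxo43 (0.88), mad2l1 (0.59), ube2c (0.48), bub1b (0.33) and cdc20 (0.23). All of these genes were called lower in MO embryos at stage 7, and of them fbxo43 alone was called at stage 8, higher. The effect of E2f1 over deltaDBD mRNA was lower at stage 8 than at stage 7 for cks1b (-1.08), cks2 (-1.06), cdca3 (-0.97), fbxo43 (-0.60), ube2c (-0.52), bub1b (-0.29) and cdc20 (-0.29), and higher for fbxo5 (0.47) and fzr1 (0.18). The Cdkn1a effect in untreated embryos was higher at stage 8 for cks2 (1.03), cdca3 (0.94), fbxo43 (0.92), ube2c (0.33) and cdc20 (0.16). The stage changes of the MO and Cdkn1a effects use the same wildtype libraries and are not separate results. Some of these calls were lost in other settings. They were cdca3 in the Cdkn1a effect between MO and untreated embryos, and mad2l1, ube2c, bub1b and cdc20 in the MO effect. The same held for fbxo5, fzr1, bub1b and cks1b in the effect of E2f1 over deltaDBD mRNA, and for ube2c and cdc20 in that of Cdkn1a. Groups of 2 libraries are too small to tell which library of a discordant pair, such as that of stage 8 MO, deviates.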

How the results depend on the processing

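Counts are of the 10 genes called unless all genes are named, and the cause of a moved count was not tested. In models of the compared groups alone, which share no spread with other groups, the counts were 2 for deltaDBD over MO at stage 7 (0 in the fit of all 26 libraries), 8 for E2f1 mRNA over wildtype at stage 7 (5), 4 for the difference of the Cdkn1a effect at stage 7 (0) and 1 at stage 8 (2), 0 for MO over wildtype at stage 8 (1), 2 for E2f1 over deltaDBD at stage 8 (1), 5 for Cdkn1a over wildtype at stage 8 (3), 0 for the MO step (1), 6 for the Cdkn1a step (1) and 3 for the stage change of the MO effect (7). With both stage 8 MO libraries left out, chosen after seeing the data, they were 1 for deltaDBD over MO at stage 7, 4 for the difference of the Cdkn1a effect there, 2 for E2f1 over deltaDBD, 4 for E2f1 over wildtype and 5 for Cdkn1a over wildtype at stage 8, and 5 for the Cdkn1a step. Total counts gave 1 for Cdkn1a over wildtype at stage 7 (4), 1 for E2f1 over wildtype at stage 8 (2) and 3 for the stage change of the Cdkn1a effect (5). The difference of the Cdkn1a effect at stage 7 had 1 call with DESeq2 and 2 without a count filter, which gave 3 for the Cdkn1a step (1).

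With single libraries left out, where the lone library is assumed to vary like the other groups, counts ran at stage 7 from 2 to 3 for E2f1 over wildtype and 0 to 1 for Cdkn1a over wildtype. At stage 8 they ran from 1 to 5 for MO over wildtype, 0 to 2 for deltaDBD over MO, 0 to 1 for E2f1 over deltaDBD, 1 to 2 for E2f1 over wildtype, 0 to 3 for Cdkn1a in MO embryos and 1 to 5 for its difference. They ran from 1 to 4 for the MO step, 5 to 8 for the stage change of the E2f1 effect and 3 to 5 for that of Cdkn1a. With Cdkn1a mRNA in MO embryos at stage 8 the value of cdca3 ran from -0.25 without MO replicate 1 to 0.30 without MO replicate 2, and that of ube2c from -0.15 to 0.14. In the MO step ube2c ran from -0.16 without stage 8 MO replicate 2 to 0.13 without replicate 1.

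Over all genes, without a count filter 21 were called for deltaDBD over MO (4 in the fit of all libraries), 371 for Cdkn1a in MO embryos (180) and 209 for its difference (135) at stage 7. At stage 8 these were 946 for MO over wildtype (556), 556 for deltaDBD over MO (133), 503 for Cdkn1a in MO embryos (234) and 1180 for the MO step (476). In models of the compared groups alone, stage 7 counts were 49 for deltaDBD over MO, 3097 for E2f1 over wildtype (1678), 1848 for Cdkn1a over wildtype (612), 738 for Cdkn1a in MO embryos and 582 for its difference. Stage 8 counts were 26 for MO over wildtype, 2 for deltaDBD over MO, 572 for E2f1 over deltaDBD (206), 1408 for E2f1 over wildtype (741), 1240 for Cdkn1a over wildtype (801), 3 for Cdkn1a in MO embryos and 230 for its difference (815). The MO step had 0, the Cdkn1a step 1188 (310), and the stage changes 487 for MO (2080) and 1756 for Cdkn1a (785). Without the stage 8 MO libraries, counts in the same order of comparisons were 17, 2893, 1757, 643 and 608 at stage 7, 425 for E2f1 over deltaDBD, 1431 for E2f1 over wildtype and 1466 for Cdkn1a over wildtype at stage 8, 1168 for the Cdkn1a step and 1806 for the stage change of Cdkn1a. Without stage 8 MO replicate 1 the calls over all genes were 3015 for MO over wildtype, 2564 for deltaDBD over MO, 2343 for Cdkn1a in MO embryos, 2733 for its difference, 3486 for the MO step and 3471 for its stage change. With 1 library out, counts that fell by over 1.5 times had a lowest value at stage 7 of 1922 for MO over wildtype (3243), 2 for deltaDBD over MO, 527 for E2f1 and 43 for Cdkn1a over wildtype, 61 for Cdkn1a in MO embryos and 57 for its difference. At stage 8 it was 202 for MO over wildtype, 32 for deltaDBD over MO, 117 for E2f1 over deltaDBD, 394 for E2f1 and 408 for Cdkn1a over wildtype, 93 for Cdkn1a in MO embryos and 473 for its difference, and it was 122 for the MO step, 79 for the Cdkn1a step, and 1301 for MO and 359 for Cdkn1a in the stage changes.

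The replicate numbers did not pair the libraries (correlations of deviations from -0.07 to 0.06 over 78 group pairs). With them as a replicate block, no call of the 10 genes was lost, and 3 were gained: cdca3 in the difference of the Cdkn1a effect at stage 7 (1 call in place of 0, adjusted p = 0.0482), and mad2l1 in the stage changes of the E2f1 (adjusted p = 0.0424) and Cdkn1a effects (adjusted p = 0.0376). Median-of-ratios scaling, and leaving out e2f1 and cdkn1a, kept every count of all genes within 1.5 times. Depth limits cks1b most, with 27 counts in its lowest library, and 2 libraries a group limit all tests.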

Other observations

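With E2f1 over deltaDBD mRNA at stage 7, genes around Cdk1 and the SCF ligase were also called: 7 of 15 Cks and SCF partners rose and 4 fell. Among those that rose were the maternal Wee1-type kinase wee2 (0.43 ± 0.03 on the log2 scale), the phosphatase cdc25a (0.37 ± 0.04) and the SCF subunit skp1 (0.29 ± 0.04). Of the mitotic phosphatase genes 8 of 12 rose and 3 fell, with the catalytic subunit ppp1cc at 0.40 ± 0.03. Of the separase and cohesin genes 8 of 14 rose and 1 fell, the cohesin subunits smc1a (0.30 ± 0.04) and smc3 (0.37 ± 0.04) among those that rose and the cohesin loader nipbl the one that fell (-0.55 ± 0.09). In the Emi2 and cytostatic arrest pathway 6 of 13 rose and 5 fell, with cpeb1, a regulator of the poly(A) tails of stored mRNAs, at 0.35 ± 0.04 and rps6ka1 at -0.70 ± 0.08. Among the E2 enzymes and deubiquitylases 5 of 10 rose and 3 fell, with ube2s at 0.31 ± 0.04 and ube2d3 at -0.62 ± 0.09. Over all genes the shares were 22.6% higher and 23.9% lower.

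In MO over wildtype embryos of stage 8, the Cdk-inhibiting kinase pkmyt1 fell (-0.58 ± 0.06), the one of 15 Cks and SCF partners called there. Of the Emi2 pathway cpeb1 (-0.19 ± 0.04) and camk2d (-0.39 ± 0.08), a subunit of the kinase that triggers destruction of Emi2 at fertilisation, fell. Of the APC/C substrates the cyclin ccnb1.2 (0.12 ± 0.03) and the licensing inhibitor gmnn (0.13 ± 0.04) rose. Over all genes 4.32% were called, and these single genes are no result about their lists. Without stage 8 MO replicate 1, cpeb1 was no longer called (adjusted p = 0.0639). Without replicate 2 the calls of cpeb1 (adjusted p = 0.179), ccnb1.2 (adjusted p = 0.168) and gmnn (adjusted p = 0.351) were lost, while pkmyt1 (-0.60) and camk2d (-0.35) stayed called.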
